A study of Mus musculus with 24 samples.

Results

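Ttr, Folr1, Clic6, Kl, Otx2, Aqp1, Sostdc1, Enpp2 and Kcne2, 9 genes that mark the choroid plexus or act in it, were followed through 24 RNA-seq libraries of dissected mouse archicortex. The genes, 9 of the 51912 genes measured, were chosen by name as choroid plexus genes, with earlier results of these data known. All 9 passed the filter on low values that left 16454 genes for testing. The archicortex is the medial wall of the dorsal telencephalon, with the hippocampal primordium, the cortical hem and the tissue next to it, and the study asked what loss of the transcription factor Sox9 does there. Each of 6 groups held 4 libraries. In the Sox1Cre line, Sox9fl/fl;Sox1Cre mutants and Sox9+/+;Sox1Cre controls were taken at E12.5 and at E13.5. In the NestinCre line, Sox9fl/fl;NestinCre mutants and Sox9+/+;NestinCre controls were taken at E13.5, and NestinCre tissue at E12.5 was not analysed here. All embryos were of mixed C57BL/6J;MF1 background, and the controls carried a Cre too, so an effect of Cre alone would be shared by mutants and controls of a line. Sox1Cre is a targeted allele that acts from the neural plate on, while Nestin-Cre is a transgene that spares most of the cortical hem, so the lines differ in where Sox9 is lost. Between 16163560 and 49445219 reads per library fell on genes. Values are normalized counts, that is reads per gene divided by a size factor of the library. Libraries are called A1 to A24, and the sources do not say which came from littermates, so tests measure the spread between these libraries.

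The choroid plexus forms where the dorsal midline of each brain ventricle thins into a single epithelial layer over a core of vessels and mesenchyme, next to the cortical hem in the telencephalon. The epithelium secretes cerebrospinal fluid and carries proteins, vitamins and ions between blood and fluid. In the mouse telencephalon it is laid down shortly before the ages sampled here, and its cells go on to gain transport and secretory functions while the plexus grows. A hand dissection of the archicortex cuts beside or through this tissue, so a library can hold more or less of it.

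The labels were first checked against marker genes. Sox9 fell in the mutants of each set, with 4 of 4 mutant libraries below all 4 controls. Its mean normalized count was 4522 ± 503 (SD, n = 4) in E12.5 controls and 2260.0 ± 508 in E12.5 mutants (log2 change −1.02, limma adjusted p = 6.3e-05). At E13.5 it was 5578 ± 306 against 3363 ± 376 in the Sox1Cre line (−0.74, limma adjusted p = 0.0021) and 5152 ± 465 against 3134 ± 162 in the NestinCre line (−0.71, limma adjusted p = 0.0297). According to the study, recombination removes only part of Sox9 and the rest is still expressed. These whole-gene counts therefore do not measure how complete the deletion was. Emx1, a transcription factor of the dorsal telencephalon, was at 1463 to 2705 in every library. Gsx2, which defines ventral progenitors, was at 0 in 18 of 24 libraries, and Rpe65, which defines the retinal pigment epithelium, in 23.

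3 libraries stood apart from their groups, and they are named here because several results below change without them. A1, an E13.5 Sox1Cre mutant, had the lowest summed level of the 9 genes, 8582 against 69635 to 93778 in the other 3 libraries of its group. A1 also had the lowest sums of the 24 libraries for markers of meninges (19962), endothelium (5904), hem (17319) and multiciliated cells (6652), and the highest for cortical progenitors and neurons (54448). A12, an E12.5 mutant, was the opposite for hem, with the highest sum (72737), and had the lowest cortical sum (23681). A18, an E13.5 NestinCre mutant, had Dlx2, a ventral telencephalic factor, at 220.2 against 1.3 to 22.3 elsewhere. Xist levels were also unbalanced between groups. Xist, the RNA of the inactive X in females, was at 3660 to 4451 in all 4 E12.5 Sox1Cre controls and at 1.1 to 2.3 in all 4 E13.5 Sox1Cre controls, so age and Xist level cannot be told apart among these controls. In the Sox1Cre mutants each age held 2 libraries of each kind, so Xist also differed between genotypes in part, and in the NestinCre line it was high in 1 of 4 controls and 2 of 4 mutants.

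Choroid plexus transcripts were abundant in this tissue and differed more than 5-fold between libraries for each of the 9 genes. Per kilobase of exon, the mean level over 24 libraries was highest for Ttr, which carries thyroid hormone and retinol-binding protein into the cerebrospinal fluid, at 25727 normalized counts per kb. Clic6, an intracellular chloride channel protein, was at 1647 and Kcne2, a potassium channel subunit, at 745.7 on the same scale. Otx2, the homeodomain factor needed to form and keep the choroid plexus, was at 549.4. Folr1, the receptor that carries folate, was at 376.5, and Sostdc1, a secreted BMP and WNT antagonist, at 349.3. Enpp2, the secreted enzyme autotaxin, was at 224.7 and Aqp1, the apical water channel, at 217.0. Kl, the gene of the co-receptor Klotho, was far below the others at 2.85 per kb. The highest library exceeded the lowest 16-fold for Kcne2, 13.4-fold for Ttr and 11.6-fold for Aqp1, but 5.05-fold for Otx2. When the 6 groups were put in order of their medians, neighbouring groups overlapped in every case but 1, a pair for Kl. Neighbours in such an order are the closest groups, so this overlap does not measure how far apart the groups were. Groups farther apart in the order were separate for some genes. Otx2, for example, was at 2869 to 3472 in E12.5 Sox1Cre mutants and at 1428 to 2848 in E13.5 Sox1Cre controls. The share of all genes with such separate groups is not given here.

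**Figure D1:**
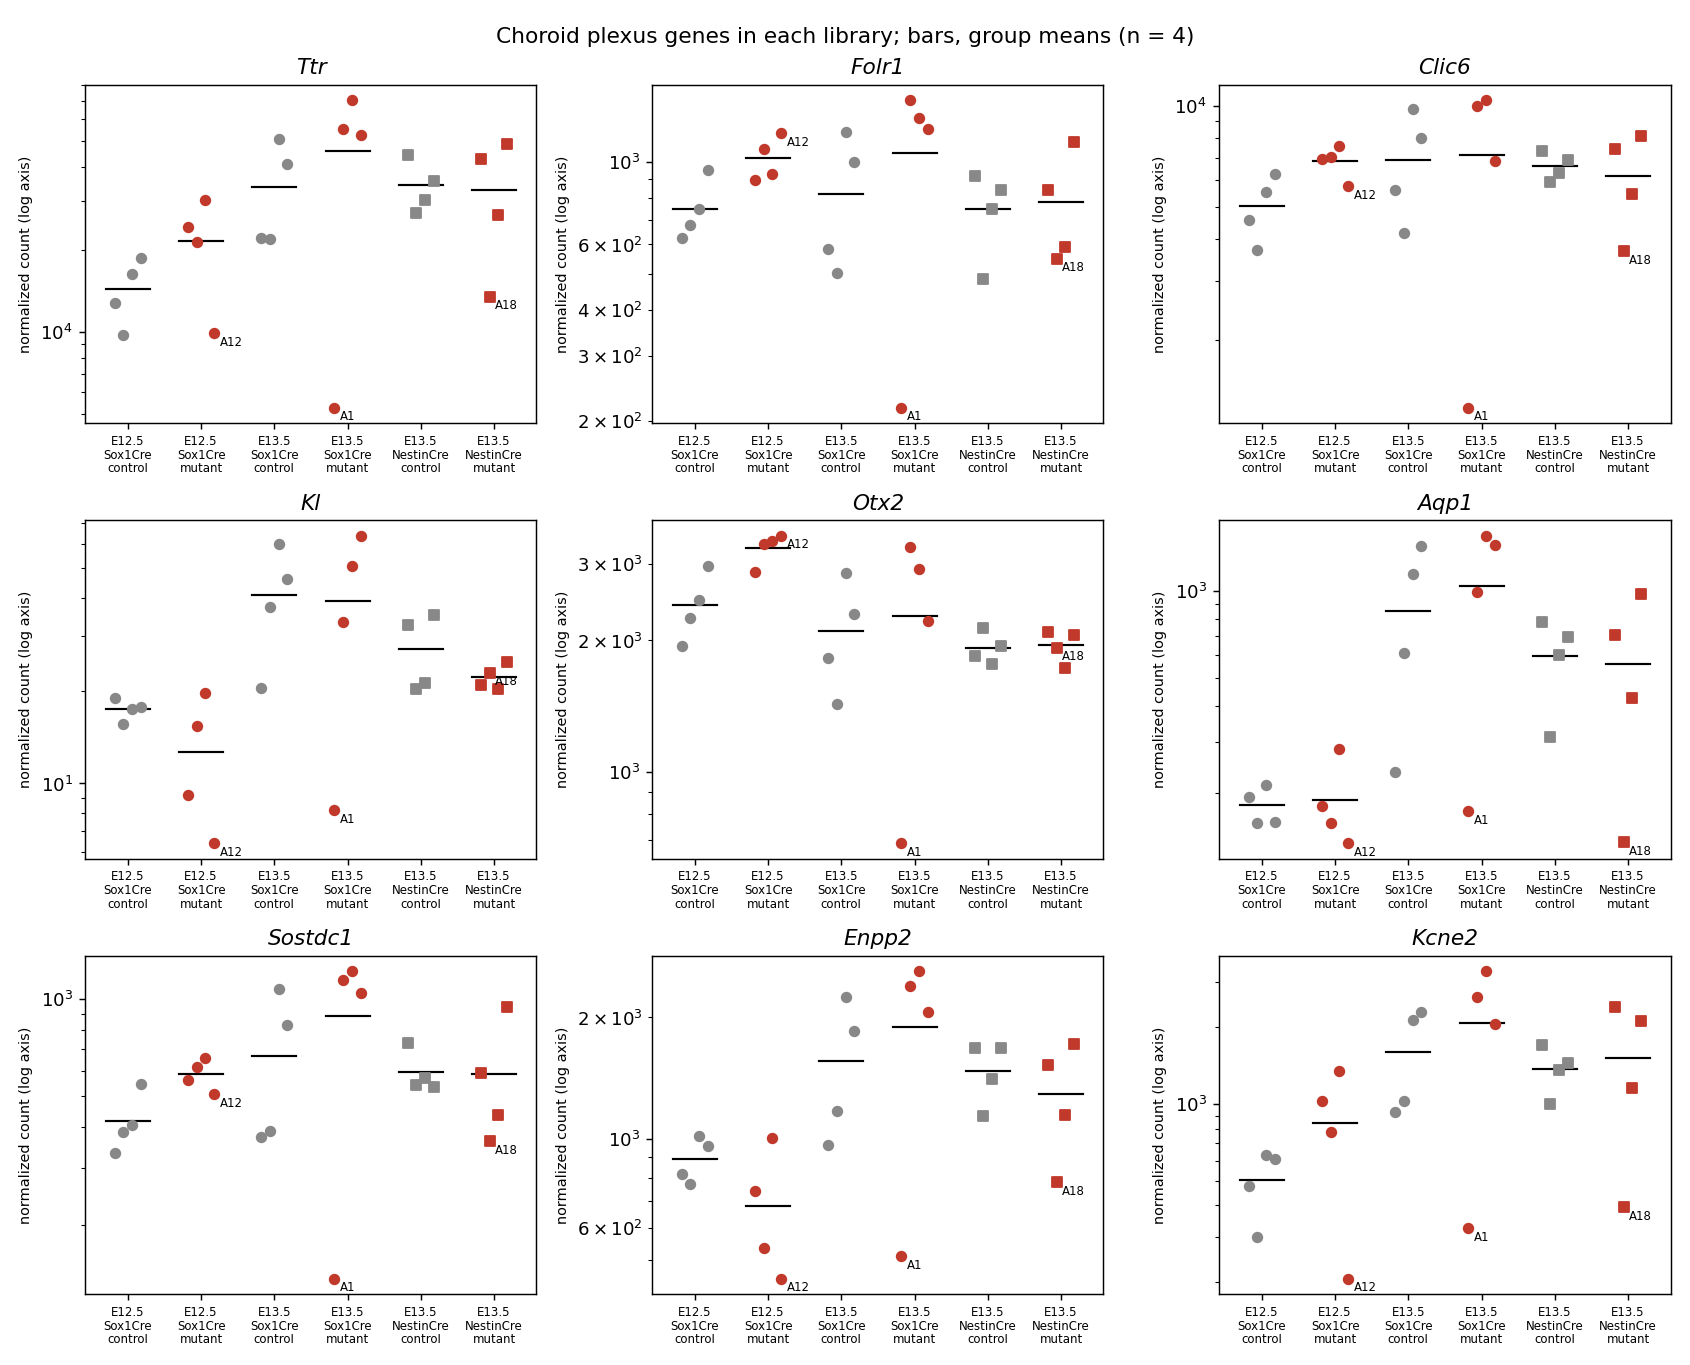
Normalized counts (log axis) of the 9 choroid plexus genes in each of 24 libraries, by group. Points are libraries (grey, control; red, mutant; circles, Sox1Cre; squares, NestinCre), bars are group means, and A1, A12 and A18 are labelled. For Aqp1 the 8 E12.5 libraries sit between 133.8 and 284.6, and A1, A5 and A18 are the E13.5 libraries within that range.

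Some of these genes were higher at E13.5 than at E12.5 in the Sox1Cre controls, but none passed the test. Aqp1, Kcne2, Kl and Ttr had 4 of 4 E13.5 libraries above all 4 E12.5 libraries. That was 4 of 9 members, beside 9.23% of all genes tested. In the fit across all genes, 0 of 9 members passed an adjusted p of 0.05 (limma, Benjamini-Hochberg), beside 11.5% of all genes, and 3 of 9 were at an unadjusted p under 0.05, beside 26.7%. Their median log2 change was 0.73, against 0.00 over all genes.

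Aqp1 was at 194.1, 157.7, 213.0 and 158.6 in the E12.5 controls and at 235.6, 609.7, 1139.8 and 1433 in the E13.5 controls. The groups did not overlap, but A5, the lowest at E13.5, was close to the E12.5 range. The log2 change was 1.95 (SE 0.64, 95% interval 0.62 to 3.28; limma adjusted p = 0.0516). Kcne2 was at 478.6, 299.8, 632.8 and 608.7 at E12.5, and at 933.2, 1029.9, 2134 and 2291 at E13.5. Each E13.5 library was above each E12.5 library, with A7 and A8 well above A5 and A6. Its change was 1.60 (SE 0.65, 95% interval 0.24 to 2.96; limma adjusted p = 0.118).

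Kl was low throughout, at 19, 15.6, 17.5 and 17.7 in E12.5 controls and 20.4, 37.4, 59.7 and 46.1 in E13.5 controls. Again A5 nearly touched the E12.5 range, and the change was 1.09 (SE 0.45, 95% interval 0.15 to 2.02; limma adjusted p = 0.123). Ttr was at 12714, 9719, 16229 and 18639.5 at E12.5 and at 22053, 21914, 50780.3 and 41146 at E13.5. A7 and A8 were again the high libraries, while A5 and A6 lay just above A16. The change in Ttr was 1.19 (SE 0.59, 95% interval −0.04 to 2.42; limma adjusted p = 0.205). In bulk tissue, fewer choroid plexus cells and less RNA per cell cannot be told apart, here or in any comparison below.

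The other 5 genes overlapped between the ages. Enpp2 had a log2 change of 0.73 (limma adjusted p = 0.242), Sostdc1 0.55 (0.515), Clic6 0.41 (0.600) and Folr1 0.06 (0.954). Otx2 was the 1 gene with a negative estimate, at −0.23 (limma adjusted p = 0.691). Its level was 2405 ± 427 (SD, n = 4) at E12.5 and 2100.0 ± 613 at E13.5. The control result turned on the spread that the fit shared across groups. With A1, A12 and A18 left out together, an alternative chosen after the data were seen, the changes were the same and 5 of 9 passed (Kcne2, Aqp1, Ttr, Kl and Enpp2). With edgeR on recovered reads 1 of 9 passed (Aqp1), with DESeq2 2 of 9 (Aqp1 and Kcne2), and with Xist as a covariate 0 of 9 members and 0 of 16454 genes. Xist level and age coincide in these controls, so the Xist fit could hardly call any gene, and no conclusion is drawn from it. Among these alternatives the count over all genes is given here for the Xist fit alone. The 5 of 9 therefore has no share of all genes beside it.

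The bases before the start of transcription are shown for Aqp1, Kl and Kcne2, which had non-overlapping ages in the controls and an entry in the RefSeq promoter table (GRCm38.p6). Each run is the 250 bases upstream of a start, on the plus strand, 5′ to 3′. Capitals mark AATCC or its reverse complement GGATT, the end of TAATCC, the word that OTX-class homeodomains are known to bind.
Aqp1, chr6:55336049-55336298: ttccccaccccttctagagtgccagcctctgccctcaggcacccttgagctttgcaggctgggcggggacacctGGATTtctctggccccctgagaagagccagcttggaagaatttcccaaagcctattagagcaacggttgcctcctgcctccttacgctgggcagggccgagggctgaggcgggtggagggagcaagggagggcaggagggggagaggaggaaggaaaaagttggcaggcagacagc
Kl, chr5:150952357-150952606: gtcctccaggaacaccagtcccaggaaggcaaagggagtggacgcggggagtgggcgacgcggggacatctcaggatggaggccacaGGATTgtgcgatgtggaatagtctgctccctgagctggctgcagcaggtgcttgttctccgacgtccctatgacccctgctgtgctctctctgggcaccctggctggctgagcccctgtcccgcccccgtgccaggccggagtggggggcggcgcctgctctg
Kcne2, chr16:92292139-92292388: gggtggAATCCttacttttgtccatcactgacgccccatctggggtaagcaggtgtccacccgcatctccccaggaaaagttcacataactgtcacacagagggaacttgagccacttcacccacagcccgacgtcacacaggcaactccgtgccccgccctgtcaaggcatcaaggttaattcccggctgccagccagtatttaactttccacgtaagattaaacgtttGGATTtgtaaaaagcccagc
Aqp1 held 1 match, 176 bases before its start, and Kl 1 match, 163 bases before its start. Kcne2 held 2 matches in this window, 244 and 20 bases before the start, and 0 in the window of a second start at chr16:92295366-92295615. AATCC on either strand was in 31.4% of 32851 such windows of all genes. The whole word, which contains the shorter, was in 6.25% of windows and in none of those of these 3 genes. Of the 9 genes Otx2 also had an entry, with 4 windows, and 1 of them, at chr14:48665110-48665359 on the minus strand, held the whole word. These are letters in a window, and no binding was measured. In the reference assembly Kcne2 and Clic6 lie on the same chromosome, with 187.6 kb between them, at chr16:92292389-92298129 and chr16:92485736-92541243.

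In the Sox1Cre mutants, Aqp1, Enpp2 and Kl rose from E12.5 to E13.5, and none of the 9 passed as lower in this fit. The 3 of 9 stood beside 13.8% of all genes that rose and 25.9% that changed in either direction. Aqp1 was at 180.0, 157.1, 284.6 and 133.8 in the E12.5 mutants and at 172.5, 990.1, 1551 and 1446 in the E13.5 mutants. A1 lay inside the E12.5 range, while the other 3 E13.5 libraries were all more than 3-fold above it. The log2 change was 2.11 (SE 0.64, 95% interval 0.78 to 3.44; limma adjusted p = 0.0189).

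Enpp2 was at 739.2, 533.6, 1006 and 448.7 at E12.5 and at 511.1, 2389.8, 2605 and 2065 at E13.5. It followed the same pattern, with A1 inside the E12.5 range and the other 3 above it, and rose by 1.3 (SE 0.39, 95% interval 0.48 to 2.12; limma adjusted p = 0.0191). Kl was at 9.2, 15.4, 19.7 and 6.4 at E12.5 and at 8.2, 33.3, 50.7 and 63.6 at E13.5. It rose by 1.34 (SE 0.45, 95% interval 0.41 to 2.28; limma adjusted p = 0.0323), again with A1 among the E12.5 values.

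Ttr was at 24283, 21385, 30465 and 9862 in E12.5 mutants and at 5266, 55499, 70415.5 and 52673 in E13.5 mutants. A1 was the lowest of all 24 libraries for Ttr and A3 the highest, and they belong to the same group. The log2 change of Ttr was 0.70 (limma adjusted p = 0.414), that of Kcne2 1.18 (0.195) and that of Sostdc1 0.20 (0.808). Estimates were below 0 for Otx2 (−0.74, limma adjusted p = 0.0863, which passed as lower without A2 or without A3), Clic6 (−0.32, 0.645) and Folr1 (−0.27, 0.688). With A1 inside or below the E12.5 range, 0 of 9 had non-overlapping ages in the mutants, beside 12.4% of all genes with all E13.5 libraries above and 10.8% with all below.

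The mutant calls depended on single libraries. Without A1, 6 of 9 genes passed, with Ttr at 1.57 (limma adjusted p = 0.00938), Kcne2 at 1.93 (0.0191) and Sostdc1 at 0.96 (0.0319) joining the 3. The share of all genes that passed is not given here for this fit or the others with a library left out. Without A4 or without A12, 0 of 9 passed (Aqp1 at adjusted p = 0.0658 and 0.0571). Without A2, Aqp1 passed as higher and Otx2 as lower (−0.98, limma adjusted p = 0.0230), and without A3 Otx2 alone passed, as lower (−0.93, 0.0445). Without A1, Otx2 was at −0.23. Without A9 or without A10, 2 of 9 passed, both higher. The E13.5 and E12.5 mutants shared no library with the controls, so the control and mutant changes are separate measurements, although they came from 1 fit with a shared spread. Aqp1, Kl and Enpp2 had estimates above 0 in both genotypes, and the difference of the age changes between genotypes passed the test for none of the 9.

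**Figure D2:**
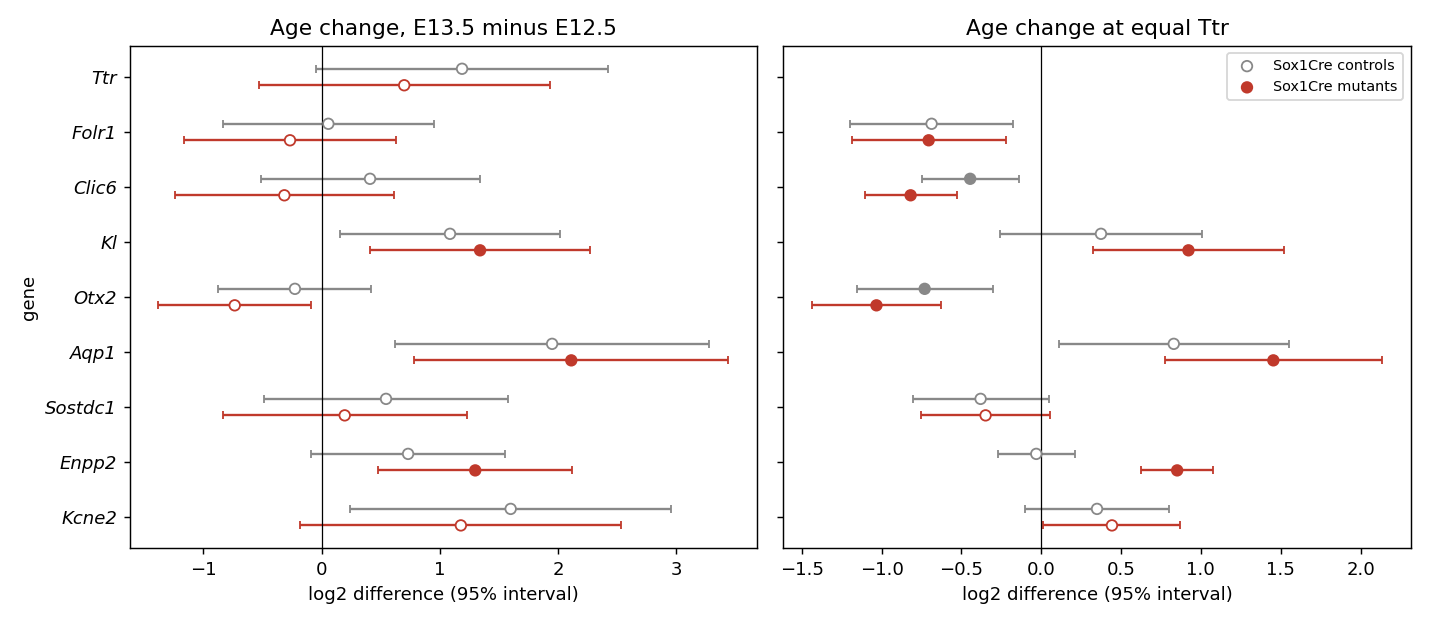
E13.5 minus E12.5 change (log2) of each gene in Sox1Cre controls (grey) and mutants (red). The left panel shows the change as measured and the right panel the change at equal Ttr, from which Ttr is absent. Lines are 95% intervals, and filled points have a limma adjusted p under 0.05. On the left, the filled points are Aqp1, Enpp2 and Kl in the mutants.

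Other genes of the choroid plexus epithelium, a list of 25 of which 24 could be tested, gave 4 that rose and 1 that fell in the controls, and 4 and 1 in the mutants. All genes tested passed at 11.5% in controls and 25.9% in mutants, so the share of the list was above that of all genes in controls and below it in mutants. The median log2 change over the list was 0.45 in controls and 0.28 in mutants. Tmem72, a transmembrane protein gene, had the highest estimate. It was at 1.46, 2.61, 21.3 and 5.91 in E12.5 controls and at 31.7, 276.6, 498.5 and 650.8 in E13.5 controls. In mutants it was at 8.63, 12.1, 30.0 and 1.27 against 37.4, 582.7, 961.3 and 834.0. All E13.5 libraries were above all E12.5 libraries in both genotypes, A1 included. The log2 change was 5.26 in controls (SE 1.16; limma adjusted p = 0.00729) and 5.24 in mutants (limma adjusted p = 0.00269). With 1 or 2 reads in A12, A13 and A14, these sizes depend on the pseudocount of 1.

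Car12, a membrane carbonic anhydrase, rose by 1.80 in controls and 2.14 in mutants (limma adjusted p = 0.0490 and 0.0101). Trpv4, a cation channel that responds to osmotic change, rose by 1.86 and 1.85 (0.0194 and 0.00923) from levels under 12 at E12.5. Slc13a4, a sulfate transporter, rose by 1.63 in controls (limma adjusted p = 0.0218) and had an estimate of 0.89 in mutants (0.148). Slc29a4, a monoamine transporter, rose by 0.60 in mutants (limma adjusted p = 0.00265) and had an estimate of 0.39 in controls (0.0565). Igfbp2, a secreted IGF-binding protein that other cells also make, fell by 0.45 in controls and 0.69 in mutants on the log2 scale (limma adjusted p = 0.0374 and 0.0014).

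Markers of other cells moved with age in the same libraries, and their part in the choroid plexus values was not tested. The counts below stand beside 11.5% of all genes past the threshold in controls and 25.9% in mutants. Of 13 hem and roof plate genes 7 fell in controls and 11 in mutants, with none rising. Wnt8b and Rspo2, signals of the hem, had log2 changes of −1.10 and −0.99 in controls (limma adjusted p = 0.00798 and 0.0202) and −1.21 and −1.45 in mutants (0.00161 and 0.000739). Of 10 genes of cortical progenitors and neurons 5 rose and 1 fell in controls, and 9 rose and 1 fell in mutants. Tbr1, a factor of early cortical neurons, rose by 0.50 in controls (limma adjusted p = 0.0153) and 0.39 in mutants (0.0273). Of 11 genes of multiciliated cells, which the choroid plexus holds, 2 fell in controls and 6 in mutants. Foxj1, the regulator of motile cilia, had an estimate of −0.34 in controls (limma adjusted p = 0.542) and was lower in mutants (−1.0, 0.0308). Erythroid genes fell too, 7 of 10 in controls, and 6 of 10 in mutants with 1 rising. Hba-x, an embryonic globin, fell by 2.33 in controls and 3.28 in mutants on the log2 scale (limma adjusted p = 0.00501 and 0.000185). Of 12 genes of meninges and stroma, 3 rose and 1 fell in controls, and 3 rose and 4 fell in mutants. Of 9 Cajal-Retzius genes, a list that shares Trp73 with that of multiciliated cells, 3 rose in controls, and 3 rose and 3 fell in mutants. Of 9 endothelial and pericyte genes 1 rose in each genotype. No gene passed among 5 ventral or 7 microglial genes (limma). Of 7 diencephalic genes none passed in controls, and 1 rose and 2 fell in mutants, and of 5 retinal pigment genes none passed in controls and 1 rose in mutants.

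Loss of Sox9 was not accompanied by a detectable change in any of the 9 choroid plexus genes. At E12.5 in the Sox1Cre line 0 of 9 passed (limma), beside 0.723% of all genes, at E13.5 0 of 9, beside 0.924%, and in the NestinCre line 0 of 9, beside 0.0669%. With all libraries in the fit, none was at an unadjusted p under 0.05, beside 2217 of the 16454 genes at E12.5, 11.7% at E13.5 and 6.47% in the NestinCre line, and edgeR and DESeq2 on recovered reads called 0 of 9 as well. With A1, A12 and A18 left out together 0 of 9 passed in each (limma). In the Sox1Cre line 4 of 9 at E12.5 and 6 of 9 at E13.5 were then at an unadjusted p under 0.05. In the NestinCre line 0 of 9 were, and the share of all genes in that fit is not given here. Xist was unbalanced in these comparisons too, and with Xist as a covariate 0 of 9 passed in each (limma). At E12.5 estimates ran from −0.54 to 0.52 on the log2 scale, and 95% intervals reached from −1.48 to 1.86. Of the 9 estimates 7 were above 0, with a median of 0.46 against 0.00 over all genes, and the median over the 24 other choroid plexus genes tested was 0.48. Without A12, the estimate of Ttr moved from 0.52 to 0.85 and that of Kcne2 from 0.50 to 1.08. Ttr was at 14325 ± 3918 (SD, n = 4) in E12.5 controls and 21499 ± 8633 in mutants. Otx2 was at 2405 ± 427 in those controls and 3261 ± 269 in those mutants, with 3 of 4 mutants above all 4 controls and A9 below the highest control.

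At E13.5 the Sox1Cre estimates ran from −0.29 to 0.18 (intervals −1.28 to 1.51) and the NestinCre estimates from −0.34 to 0.04 (intervals −1.67 to 1.23). These ranges rested on A1 and A18. Without A1, all 9 Sox1Cre estimates were above 0, from 0.31 for Kl to 0.91 for Sostdc1, with Ttr moving from 0.03 to 0.90. None passed then (lowest limma adjusted p = 0.110), and 5 of 9 were at an unadjusted p under 0.05. The share of all genes at that p without A1 is not given here, so the 5 of 9 cannot be set against it. Without A18, 7 of 9 NestinCre estimates were above 0, and Ttr moved from −0.20 to 0.18, Kcne2 from −0.13 to 0.41 and Aqp1 from −0.34 to 0.23, none passing (limma). Ttr was at 33973 ± 14393 in Sox1Cre controls and 45963 ± 28226 in mutants, and at 34399 ± 7577 in NestinCre controls and 32915 ± 15926 in mutants. Aqp1 was at 854.6 ± 535 in controls and 1039.8 ± 627 in mutants of the Sox1Cre line, and at 596.4 ± 202 and 560.4 ± 363 in the NestinCre line. The mutant groups, which hold A1 and A18, had the larger SDs for both genes in both lines. The intervals leave room for sizable changes: at E12.5 the upper bound passed a doubling for 7 of 9 genes, and in the NestinCre line the lower bound passed a halving for 7 of 9. Between the E13.5 controls of the lines 0 of 9 passed (limma), beside 0.243% of all genes, with estimates of −0.51 to 0.09. Between the genotype changes at E12.5 and E13.5 0 of 9 passed, beside 0% of all genes, with estimates of −0.73 to 0.57. Between the genotype changes of the Cre lines 0 of 9 passed, beside 0.0425%, with estimates of −0.52 to 0.10. Both differences moved with A1: without it their medians went from −0.35 to 0.38 between ages and from −0.21 to −0.91 between lines, where all 9 estimates were then below 0, with 0 of 9 passing (limma) and 1 and 2 of 9 at an unadjusted p under 0.05. How many of all genes were at that p without A1 is not given here. With all libraries in the fit, none of the 9 in these 3 comparisons was at an unadjusted p under 0.05, beside 10%, 7.4% and 8.27% of all genes.

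The spread between libraries of 1 group was wider for these genes than for most others. The SD within groups on the log2 scale was 1.0 for Kcne2, 0.98 for Aqp1, 0.91 for Ttr and 0.76 for Sostdc1. It was 0.68 for Clic6, 0.66 for Folr1, 0.66 for Kl, 0.60 for Enpp2 and 0.48 for Otx2. The median of the 9 was 0.68, beside 0.17 over all genes tested. Between 80.8% of genes, for Otx2, and 96.2%, for Kcne2, had a smaller spread. A1, far below its group mean for all 9, is part of these SDs and widens them. The comparison with all genes is not given without it.

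The 9 genes moved together from library to library. In A1 all 9 were below the group mean, by −1.51 to −2.62 on the log2 scale with a mean of −2.04, which is 0.243-fold. In A5 and A6, both E13.5 Sox1Cre controls, all 9 were also below, with means of −0.63 and −0.44. A18 was at −0.76, with 8 of 9 below. A3 (0.84), A2 (0.64), A7 (0.63), A20 (0.58) and A4 (0.56) were the libraries with the highest means. A1 is in the group mean from which A2, A3 and A4 are measured and lowers it. Their high means thus in part restate the low values of A1, and that of A20 those of A18. A12 differed from the rest, since Kcne2 there was at −1.73 while Folr1 was at 0.23, both against the group mean. Ttr (−1.01) and Kl (−0.78) were also low in A12, and Otx2 was at 0.09.

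**Figure D3:**
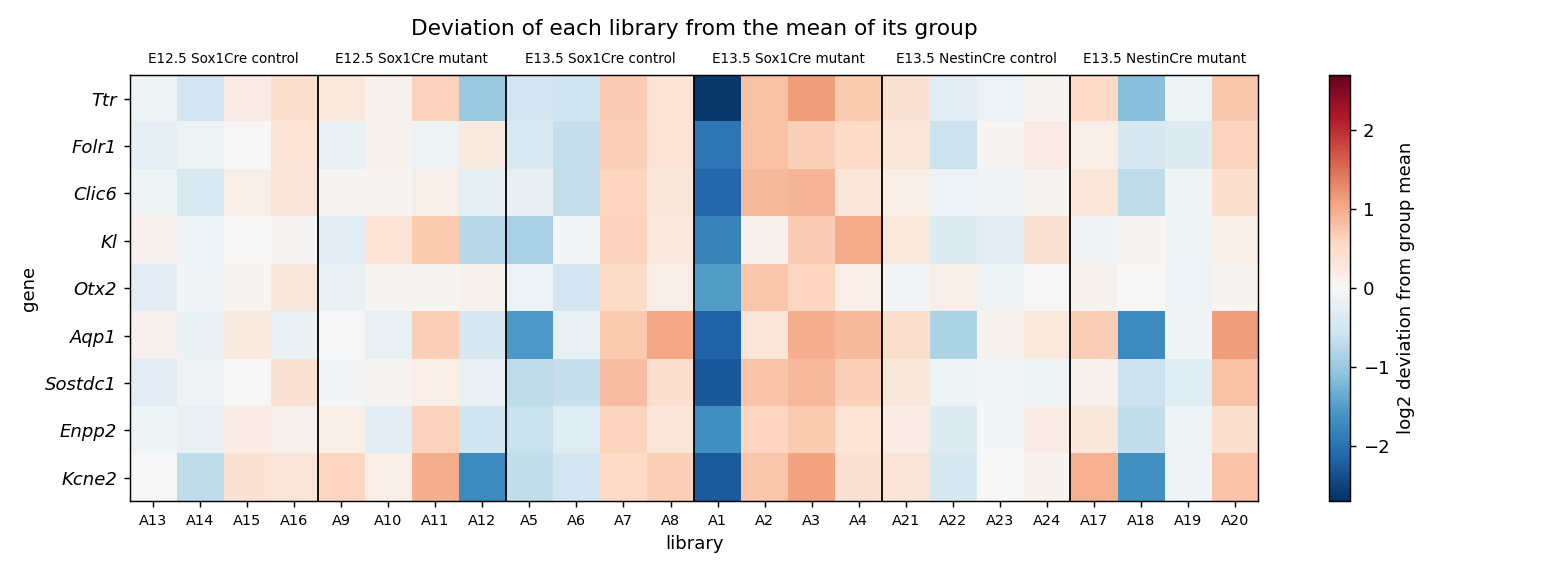
Deviation of each of the 9 genes from its group mean (log2, color scale) in each of 24 libraries. A1 is below its group for all 9 genes, and A12 is low for Kcne2, Ttr and Kl but not for Folr1 or Otx2.

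Within groups, each of the other 8 genes rose with Ttr. In a fit of each gene on log2 Ttr with the group means kept apart, 8 of 8 had a positive slope that passed (limma), beside 11% of all genes with a positive slope and 18.8% with a slope of either sign. Kcne2 had the steepest slope of the 8, at 1.05 (SE 0.073; limma adjusted p = 1.5e-09), and 1.36 without A1. Aqp1 had a slope of 0.94 (SE 0.116; 5.0e-06) and Sostdc1 of 0.78 (SE 0.069; 5.0e-08). Clic6 followed at 0.72, Enpp2 at 0.64, Folr1 at 0.63 and Kl at 0.60. Otx2 was the flattest, at 0.42 (SE 0.069; limma adjusted p = 0.00017). Sox9 itself had a slope of 0.01. Without A1 the slope of Otx2 was 0.18 (limma adjusted p = 0.268) and that of Kl 0.46 (0.113), and 6 of 8 passed.

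As a description, the deviations of the 8 genes from their group means correlated with those of Ttr over 24 libraries at r from 0.809 for Otx2 to 0.967 for Enpp2. With A1 and A18, the libraries farthest out in Ttr, left aside as points, r ran from 0.643 for Otx2 to 0.945 for Kcne2. The group means still held A1 and A18, so these r are not free of them. A2, A3 and A4, for example, kept the offset that A1 gave them. Over all 36 pairs of the 9 genes r was 0.611 to 0.967, with a median of 0.858. It was 0.383 to 0.945 without those points, from the same group means. The points share library and depth. The 10 genes most like Ttr by this measure, among 11822 ranked, were Vwa3a (r = 0.985), Dnah11 (0.984), Htr2c (0.982), Drc7 (0.982), Kcnj13 (0.981), Cfap61 (0.980), Ccdc187 (0.975), Wdr63 (0.975), Pifo (0.974) and Abhd3 (0.974). Dnah11 encodes an axonemal dynein, Htr2c a serotonin receptor and Kcnj13 a potassium channel, and Kcnj13 was the 1 gene of the 10 on a list used here.

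Among the lists, 19 of 24 other choroid plexus genes and 8 of 11 multiciliated genes rose with Ttr within groups. All genes tested did so at 11%. The share was between these among hem and roof plate genes (4 of 13), endothelium (4 of 9), meninges (3 of 12), and Cajal-Retzius cells (2 of 9). Trp73 is on both the multiciliated and the Cajal-Retzius list, and as it passed it is counted in both. In diencephalon (1 of 7), erythroid cells (1 of 10), microglia (1 of 7) and retinal pigment epithelium (1 of 5) a single gene passed. These shares rest on 1 gene each, and that of the short retinal pigment list was above the share of all genes. Its gene was Mitf, with a slope of 0.53 (limma adjusted p = 7.6e-07). No gene of the cortical (0 of 10) or ventral (0 of 5) lists passed, and no gene of any list fell with Ttr. Between these lists the shares were not tested against each other. The 9 genes and the lists were chosen with earlier results of these data known, so the shares are descriptions.

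The age change was then taken at equal Ttr, that is with log2 Ttr in the fit. Ttr has its own estimate with age, above 0 in both genotypes, so it is not a neutral measure of how much choroid plexus a library held. In the controls, Otx2 and Clic6 were lower at E13.5 at equal Ttr. Otx2 fell by 0.73 (SE 0.20; limma adjusted p = 0.0256) and Clic6 by 0.45 (SE 0.15; adjusted p = 0.0490), 2 of 8 beside 6.69% of all genes that were lower and 13% that passed in either direction. Folr1 had an estimate of −0.69 (limma adjusted p = 0.0664), and Aqp1 of 0.83 (0.113). With Xist as a further covariate 0 of 8 passed, but Xist level and age coincide in these controls, so that fit cannot decide. With each of the 8 libraries left out in turn, Otx2 passed in 4 of 8 fits and Clic6 in 1 of 8, all with estimates below 0. With all libraries, 11 of 13 hem genes and 9 of 11 multiciliated genes were also lower at equal Ttr in the controls. Among cortical genes 4 of 10 were higher and 0 lower. Of the 24 other choroid plexus genes tested, 2 were higher and 3 lower.

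In the mutants 3 of 8 were higher at equal Ttr, beside 16% of all genes, and 3 of 8 lower, beside 15.8%, with 31.8% of all genes past the threshold in all. Aqp1 (1.45, limma adjusted p = 0.00263), Enpp2 (0.85, 0.000131) and Kl (0.92, 0.0197) were higher. Otx2 (−1.03, limma adjusted p = 0.000843), Clic6 (−0.82, 0.000422) and Folr1 (−0.70, 0.0253) were lower. Without A1, 0 of 8 passed (limma), with estimates of the same signs (Otx2 −0.52, Clic6 −0.51, Folr1 −0.28, Aqp1 1.09, Enpp2 0.81 and Kl 1.22). Of the other lists, 11 of 13 hem genes and 10 of 11 multiciliated genes were also lower at equal Ttr in the mutants, while 8 of 10 cortical genes were higher and 1 lower. The 24 other choroid plexus genes tested went both ways, with 7 higher and 8 lower.

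The ratio of Ttr to Otx2 in each library, a description chosen after the values were seen, needs no fit. It was 6.55, 4.31, 6.57 and 6.30 in E12.5 controls, and 8.46, 6.44, 9.0 and 2.84 in E12.5 mutants. It was 12.1, 15.3, 17.8 and 17.9 in E13.5 Sox1Cre controls, and 7.66, 17, 24.2 and 23.7 in E13.5 Sox1Cre mutants. In the NestinCre line it was 24.1, 12.7, 17.2 and 18.4 in controls, and 20.5, 6.98, 15.4 and 23.5 in mutants. The 8 E12.5 libraries were thus at 9.0 or less and 10 of the 12 E13.5 libraries at 12.1 or more, A1 and A18 being the other E13.5 libraries. A1 and A18 had the lowest Ttr of the E13.5 libraries, and A12 had the lowest ratio of all 24. Otx2 reads may include some of an overlapping transcript on the opposite strand, Otx2os1, with which it shares 154 exon bases and which had a mean of 19.3. It also shares 168 exon bases with Gm49154 on the same strand, which was not analysed here, and Enpp2 shares 345 with Gm26684 on the opposite strand, which had a mean of 1.06. Whether counting used strand is not given in the sources used here.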

How the data were processed

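RNA was extracted from hand-dissected archicortex with the RNeasy Plus Micro kit, made into libraries with the KAPA mRNA HyperPrep kit and sequenced on an Illumina HiSeq. Per the labels and the study's methods, the authors trimmed reads with Trimmomatic 0.36, aligned them to GRCm38 with STAR 2.5.2a, estimated gene counts with RSEM 1.2.31 and normalized them with DESeq2. The deposited values are this normalized signal, that is whole estimated counts divided by 1 size factor per library, not on a log scale. Dividing by the smallest step of a library gave whole reads to within 1% of a read, which set the depth and the 3-read floor. RSEM splits reads shared between transcripts, so genes that overlap are uncertain. Of 51912 IDs, 51633 had a symbol in the RefSeq table, and 21449 had no read.

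Genes at 10 or more in at least 4 libraries (16454) were tested with limma 3.58.1 on log2(value + 1), with a mean for each of 6 groups, moderated variance with a trend, and Benjamini-Hochberg adjustment over all genes, at a threshold of 0.05. Fold changes on this scale understate the change of low genes. Associations with Ttr used the same fit with log2 Ttr added. Alternatives were edgeR 4.0.16 and DESeq2 1.42.0 on recovered reads, other pseudocounts, filters, normalization, weights and covariates, and each library left out. The fits were tested on simulated data. In the simulation for the group comparisons, genes varied independently and no library stood apart, unlike the 9 genes here. It does not show how the fits behave for genes that move together and depend on single libraries. Promoter bases are from RefSeq GRCm38.p6; 4 of the 9 genes had a window. Named genes are the 9, every other choroid plexus gene that passed an age comparison, the 10 most like Ttr by r within groups, Sox9, and up to 6 abundant genes of each other list; Emx1, Gsx2, Rpe65 and Xist outside this rule were named after their values were seen. The 9 members and the genes of the other lists were chosen with earlier results of these data known.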

Additional observations from a re-analysis of the deposited data

Results flagged for a closer look

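Of 54 sets of 4 libraries (9 genes in 6 groups), 2 held a library far from the other 3. Chance was taken to give about 1 in 20 for separate sets, and 2 of 54 does not exceed that. The 9 genes moved together, so the sets are not separate and the rate is only a guide. Gaps were taken on normalized counts, not on the log2 scale of the tests. Both were of Sostdc1, the secreted BMP and WNT antagonist. In the E13.5 Sox1Cre mutants, A1 had a Sostdc1 value of 136.0 against 1044 to 1218 in the other 3 libraries, a gap of 0.840 of the range. In the E13.5 NestinCre controls, A21 had 731.6 against 534.0 to 567.3, a gap of 0.831 of the range. A1 was low for all 9 genes, while A21 had the highest Ttr of its group, 44492.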

How the results depend on the processing

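The 9 genes gave 0 past the threshold in each genotype, line and difference comparison under all alternatives run, including the leave-one-out fits, although without A1 or A18 estimates moved and some turned sign. For the age change in controls, 0 of 9 passed in the fit reported, 1 with genes at a mean of at least 100 or with edgeR, 2 with DESeq2, 3 with the comparison's libraries alone, 5 with array weights and 5 without A1, A12 and A18, and 0 to 2 with 1 library left out (2 without A5). For the age change in mutants, 3 passed in the fit reported, 6 with array weights, 0 with the comparison's libraries alone, 5 without A1, A12 and A18, and 0 to 6 with 1 library left out, with Otx2, as lower, among the calls without A2 and without A3. At equal Ttr, 2 of 8 in controls became 1 without a filter or with robust variance, 0 with Xist as a covariate and 0 to 3 with 1 library left out. Without A1, A12 and A18 the count in controls stayed at 2, but the genes changed. Clic6 no longer passed (−0.46, limma adjusted p = 0.0745), and Folr1 did (−0.88, 0.0406). At equal Ttr in mutants, 6 of 8 became 0 without A1, A12 and A18 and 0 to 6 with 1 library left out. The association with Ttr passed for 6 to 8 of 8. The share of all genes under these alternatives is not given here, apart from the Xist covariate in the control age change. Why most of these counts moved was not tested. Leaving A1, A12 and A18 out of the control age change as measured changed its shared spread alone.

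Estimates that had not passed the test turned sign. Otx2 in controls, at −0.23 as reported, was at 0.12 with Xist as a covariate, a fit that cannot separate age from Xist level in these controls. In mutants Folr1, at −0.27 as reported, was at 0.35 with array weights, 0.0424 with edgeR, 0.0405 with DESeq2 and 0.46 without A1, A12 and A18. Clic6 in mutants, at −0.32 as reported, was at 0.41, 0.059, 0.058 and 0.31 under the same settings. At equal Ttr, Enpp2 in controls, at −0.03 as reported, was at 0.0216 with array weights, and Kcne2 in mutants, at 0.44 as reported (unadjusted p = 0.0435 by limma), was at −0.0229 without A1, A12 and A18. With 1 library left out, the age change ranged from −0.16 to 0.26 for Folr1 in controls, −0.53 to 0.39 for Folr1, −0.62 to 0.39 for Clic6 and −0.0936 to 0.96 for Sostdc1 in mutants, and at equal Ttr from −0.0902 to 0.0788 for Enpp2 in controls and −0.21 to 0.57 for Kcne2 in mutants. Depth limited Kl, Tmem72 and Trpv4, which had few reads at E12.5. No paired analysis was possible because each library carries its own number and none is shared between groups.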
